A study of Mus musculus with 18 samples.

Results

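Mitochondrial fatty acid beta-oxidation was described through 10 genes that carry long fatty acids into the mitochondrion and shorten them there: *Cpt1a*, *Slc25a20*, *Cpt2*, *Acadvl*, *Acadl*, *Acadm*, *Acads*, *Hadha*, *Hadhb* and *Hadh*. They were picked by symbol, by a rule that uses no measured value, out of 22524 genes listed for each mouse. All 10 were found, and all 10 passed the filter on low counts that left 13353 genes for testing. Liver RNA came from 10 A226Y mice and 8 WT mice, all C57BL/6 females 15 months old, with 1 library per mouse. A226Y mice carry, on one allele, a knock-in of *Rps2* (a protein of the small ribosomal subunit) that makes translation error-prone, behind a transcriptional stop that is flanked by *loxP* sites and removed by Cre. WT mice have normal *Rps2* and also express the ubiquitous CMV-Cre transgene. In the methods of the study, excision in A226Y mice is described as partial, so their livers are mosaics, and cells that kept the stop cassette lack a product of the targeted allele. The comparison asks how the liver transcriptome of mice with error-prone ribosomes differs from that of controls.

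Before the members, the targeted gene was checked. *Rps2*, summed over both alleles, ranged from 46.9 to 83.0 CPM (counts relative to the TMM-scaled library size) in A226Y mice and from 104 to 143 CPM in WT mice, with a log2 fold change of −0.73 (SE 0.11, adjusted p = 0.000772). All 10 A226Y mice lay below every WT mouse. Over all genes, 1910 of 13353 (14.3%) passed an adjusted p of 0.05, 971 of them higher (7.27%) and 939 lower (7.03%) in A226Y mice. Total counts per mouse ran from 23850565 to 62126131. Of 8 hepatocyte markers, 2 were higher and none lower. Among 6 Kupffer cell markers 1 was lower (*Clec4f*), among 7 stellate cell markers 1 was higher and 2 were lower, and none of the 6 endothelial, 5 cholangiocyte and 6 leukocyte markers passed. Summed Kupffer cell markers ran from 221 to 920 CPM in A226Y mice and from 331 to 673 CPM in WT mice, with medians of 303 and 491 CPM, and 5 of the 6 had a log2 fold change below 0 (list median −0.43). The 6 adipocyte and muscle markers were too low to be tested, with a summed level of at most 9.73 CPM in any mouse. The part of these markers in the results was not tested. In whole liver, fewer cells of a type and less RNA per cell cannot be told apart.

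Long-chain fatty acids reach the mitochondrial matrix as carnitine esters. CPT1A joins the acyl group to carnitine at the outer membrane, the carrier encoded by *Slc25a20* exchanges acylcarnitine across the inner membrane, and CPT2 returns the acyl group to coenzyme A. Each turn of the spiral then has an acyl-CoA dehydrogenase, a hydratase, a hydroxyacyl-CoA dehydrogenase and a thiolase. The trifunctional protein (subunits *Hadha* and *Hadhb*) performs the last 3 of these steps on long chains, and the matrix enzyme encoded by *Hadh* oxidizes shorter hydroxyacyl chains. In liver the pathway runs hardest in fasting, feeds ketone body synthesis, and is induced through the nuclear receptor PPARA.

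Only *Hadh* passed the test among the 10 members. It was lower in A226Y mice, which makes 1 of 10 members called (10%) beside 14.3% of all tested genes. The log2 fold changes of the 10 members had a median of −0.009, beside −0.004 over all tested genes, with 6 members below 0 and 4 above. An unadjusted p under 0.05 was reached by *Hadh* and *Acads*. The share of all genes at that unadjusted threshold was not counted, so these members are not set against a background there.

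**Figure D1:**
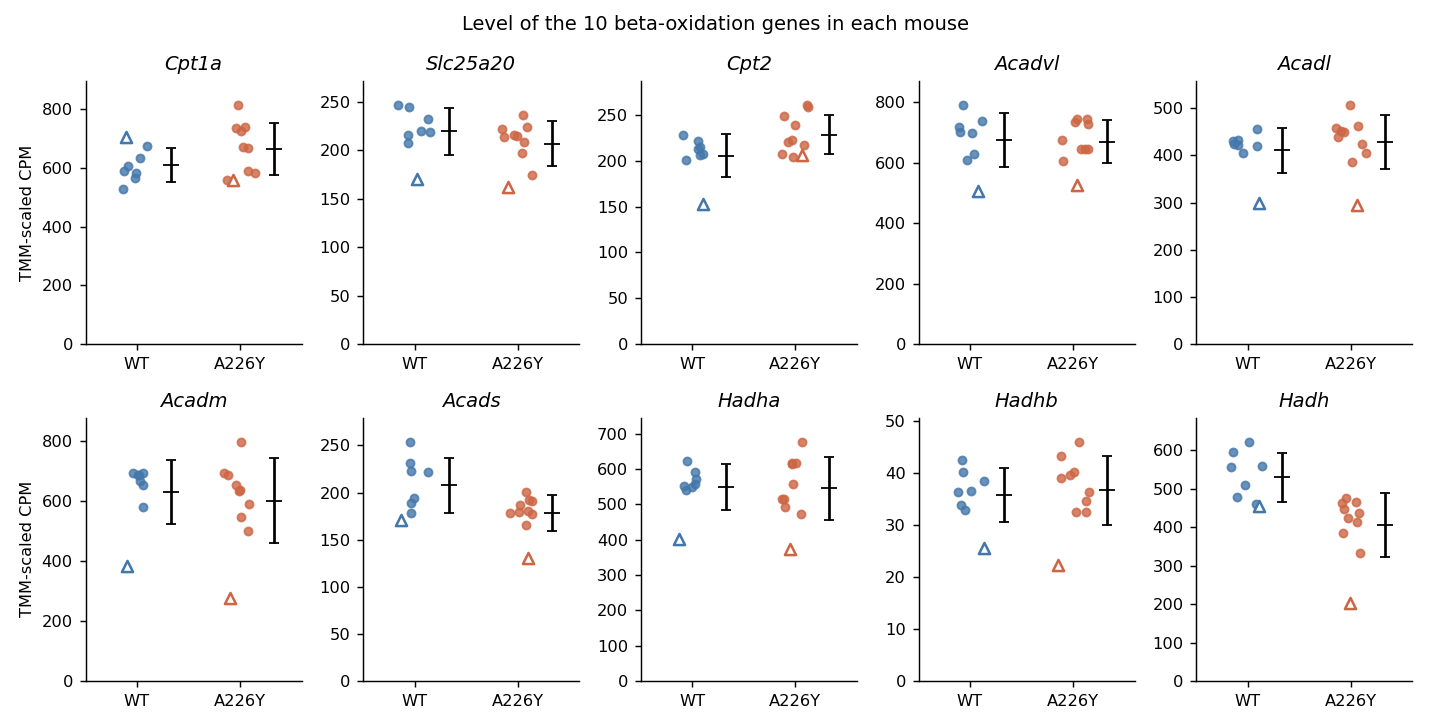
Level of each member in each mouse, in CPM after TMM scaling (vertical axis, from 0), with WT mice in blue, A226Y mice in orange and the mean ± SD of each genotype in black. Open triangles are A226Y animal 29 and WT animal 33, the lowest mouse of their genotype in 9 of 10 members, and in the panel of *Hadh* 7 of 10 A226Y mice lie below every WT mouse.

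*Hadh* encodes the short-chain 3-hydroxyacyl-CoA dehydrogenase (ENSMUSG00000027984, chromosome 3 of GRCm38, 131233419 to 131272101, minus strand). Its promoter window, from 250 bases before to 50 bases after the start site in RefSeq (GRCm38.p6), is shown because it is the one member that passed the test. Capitals mark the letters GGGCGG on either strand, a core of the GC box bound by SP family factors, which occurs 4 times.
*Hadh*, chr3:131272052-131272351, minus strand: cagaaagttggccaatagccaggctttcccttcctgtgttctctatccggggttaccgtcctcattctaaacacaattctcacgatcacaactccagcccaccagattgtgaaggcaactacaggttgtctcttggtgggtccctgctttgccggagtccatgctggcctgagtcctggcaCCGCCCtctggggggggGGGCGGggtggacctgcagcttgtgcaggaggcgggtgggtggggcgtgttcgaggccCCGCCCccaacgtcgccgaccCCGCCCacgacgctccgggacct

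The lowest, median and highest *Hadh* levels were 202, 432 and 476 CPM in the 10 A226Y mice, and 455, 533 and 623 CPM in the 8 WT mice. The genotypes overlapped only at the top of the A226Y range: 7 of 10 A226Y mice lay below every WT mouse, and 6 of 8 WT mice lay above every A226Y mouse. All 10 A226Y mice were below the WT mean. The means were 405 ± 83.2 CPM (SD, n = 10) and 530 ± 63.3 CPM (SD, n = 8). On the log2 scale *Hadh* fell by 0.39 (SE 0.13, 95% interval −0.65 to −0.12, adjusted p = 0.045), which is a change of −23.6%. A two-sided exact permutation test of this gene alone gave an unadjusted p = 0.00149. None of the 50-base stretches of its transcript occurs in a transcript of another gene.

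The call for *Hadh* stands close to the threshold. It remained with A226Y animal 3, 5, 22 or 29 or WT animal 4, 6 or 33 left out, and was lost when any one of the other 11 mice was left out, with log2 fold changes from −0.42 to −0.31 and adjusted p-values from 0.0129 to 0.092. With 4 surrogate variables (covariates estimated from the counts themselves) the log2 fold change was −0.18 (adjusted p = 0.192).

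Within a mouse, *Hadh* was also lower relative to *Hadha*, a comparison that does not depend on the scaling between libraries. The mean log2 ratio of *Hadh* to *Hadha* CPM was −0.45 ± 0.22 (SD, n = 10) in A226Y mice and −0.05 ± 0.21 (SD, n = 8) in WT mice. The difference was −0.40 (95% interval −0.62 to −0.18, two-sided exact permutation p = 0.00158, adjusted p = 0.0079 over the 5 ratios computed). All 10 A226Y mice had a ratio below the WT mean, and 4 lay below every WT mouse. Leaving out mice 1 at a time moved the difference between −0.46 and −0.35. Without both A226Y animal 29 and WT animal 33 it was −0.32 (two-sided exact permutation, adjusted p = 0.0288 over the 5 ratios).

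**Figure D2:**
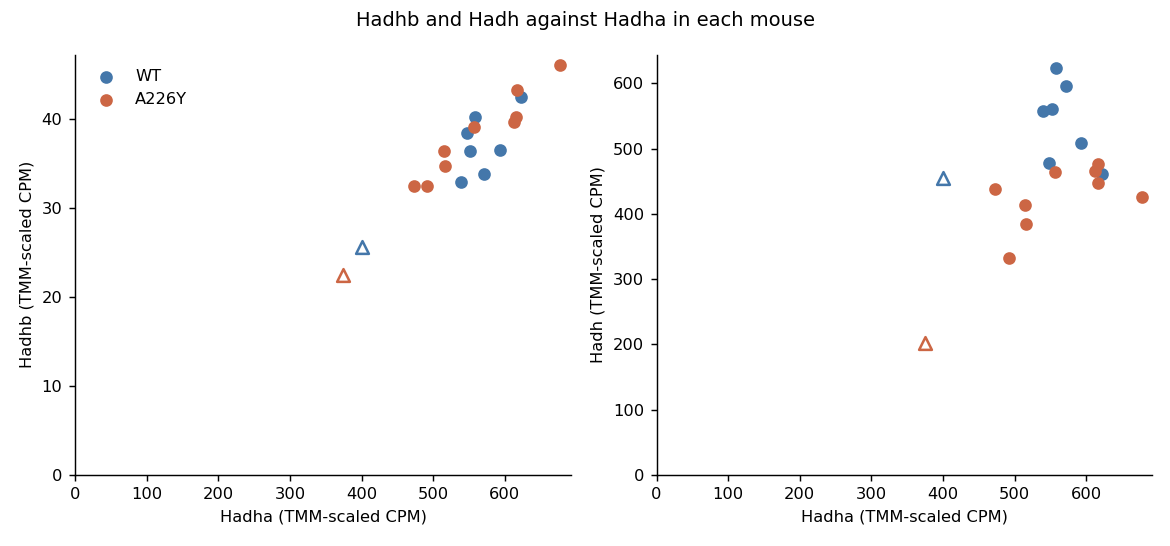
*Hadhb* (left) and *Hadh* (right) against *Hadha* in each mouse, all in TMM-scaled CPM, with WT mice in blue, A226Y mice in orange and open triangles for A226Y animal 29 and WT animal 33. On the left both genotypes lie along one band, and on the right most A226Y mice lie lower than WT mice at the same *Hadha* level, a mean difference of −0.40 in the log2 ratio.

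None of the 3 genes of the carnitine shuttle passed the adjusted threshold. *Cpt1a* (ENSMUSG00000024900, chromosome 19, 3322334 to 3385733, plus strand), the step that malonyl-CoA inhibits, had lowest, median and highest levels of 558, 669 and 814 CPM in A226Y mice and 528, 598 and 705 CPM in WT mice. The ranges overlapped over most of their length, and 4 A226Y mice were above every WT mouse. Its log2 fold change was 0.12 (SE 0.08, 95% interval −0.06 to 0.30, adjusted p = 0.354).

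*Slc25a20*, the carnitine-acylcarnitine carrier (ENSMUSG00000032602, chromosome 9, 108662088 to 108684641, plus strand), had 162, 214 and 237 CPM as lowest, median and highest values in A226Y mice. In WT mice these were 171, 220 and 247 CPM. The ranges were nearly the same, with a log2 fold change of −0.09 (SE 0.08, 95% interval −0.25 to 0.08, adjusted p = 0.50). Its promoter window was the only one of the 10 with a match to a direct repeat of AGGTCA with 1 base between the copies, the kind of element that PPARA binds with its partner RXR, on either strand and with up to 2 mismatches. The match lies on the plus strand from base 6 to base 18 after the RefSeq start site, is marked in capitals with 6 bases on each side, and has 2 mismatches.
*Slc25a20* element: gaatgtAGGTGAAAGGTCGgcggag
Such a match was present in 1268 of 32851 promoter windows of the same length (3.86%). That 9 members show none says only that the letters are not in these windows.

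*Cpt2* (ENSMUSG00000028607, chromosome 4, 107903981 to 107923610, minus strand), the inner membrane transferase, had lowest, median and highest levels of 204, 222 and 261 CPM in A226Y mice and 152, 210 and 228 CPM in WT mice. The A226Y range began higher and ended higher, 4 A226Y mice exceeded every WT mouse and only 1 of 10 was under the WT mean. Its log2 fold change was 0.15 (SE 0.08, 95% interval −0.01 to 0.31, adjusted p = 0.185). Taken alone it gave p = 0.0396 in a two-sided exact permutation test, unadjusted for the 10 members tested in this way, and p = 0.0634 in the same exact test without A226Y animal 29 and WT animal 33. With libraries scaled by their size only, the exact permutation p was 0.00635 for *Cpt2* and 0.0459 for *Cpt1a*, and leaving out 1 mouse at a time gave *Cpt2* an exact permutation p from 0.0234 to 0.104. The log2 ratio of *Cpt1a* to *Cpt2* differed by −0.04 between the genotypes (95% interval −0.28 to 0.19, two-sided exact permutation, adjusted p = 0.733 over 5 ratios).

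**Figure D3:**
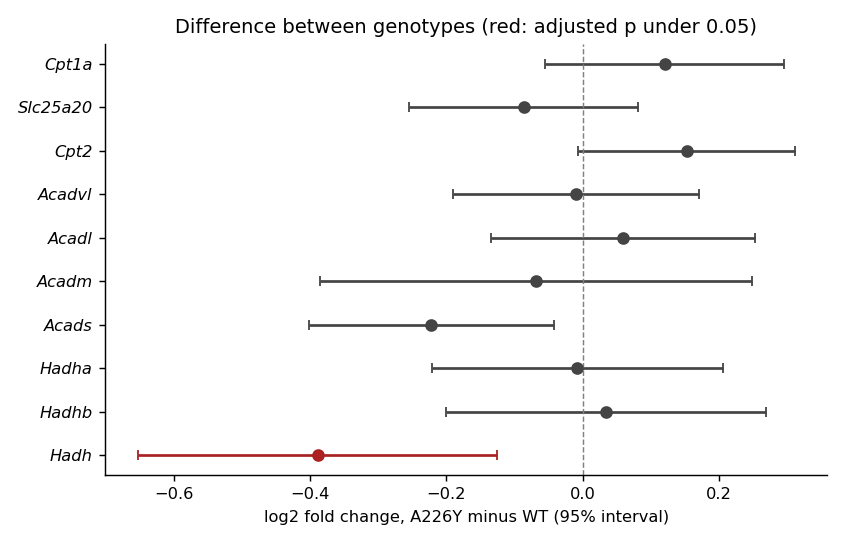
Log2 fold change of each member (points, A226Y minus WT) with its 95% interval (bars) from the fit over all 13353 genes. The intervals of *Hadh* and *Acads* lie below 0, and only that of *Hadh*, in red, has an adjusted p under 0.05.

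The 4 acyl-CoA dehydrogenases carry out the first oxidation on chains of falling length, and none passed the adjusted threshold. *Acads*, for the shortest chains (ENSMUSG00000029545, chromosome 5, 115110299 to 115119346, minus strand), had lowest, median and highest levels of 130, 180 and 200 CPM in A226Y mice and 171, 208 and 254 CPM in WT mice. All 10 A226Y mice were below the WT mean, 2 were below every WT mouse, and 4 WT mice were above every A226Y mouse. The log2 fold change was −0.22 (SE 0.09, 95% interval −0.40 to −0.04, adjusted p = 0.087), and the two-sided exact permutation test gave an unadjusted p = 0.0208. Without A226Y animal 29 and WT animal 33 it was −0.21 (adjusted p = 0.0387), while with any single mouse left out the adjusted p stayed from 0.0533 to 0.181. With library size only, the exact permutation p was 0.0728.

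*Acadm*, for chains of medium length (ENSMUSG00000062908, chromosome 3, 153922357 to 153944632, minus strand), had the largest coefficient of variation of the members within each genotype. Its lowest, median and highest levels were 276, 636 and 799 CPM in A226Y mice and 385, 678 and 694 CPM in WT mice. The A226Y mice spanned the whole WT range, with a coefficient of variation of 23.4% in A226Y mice and 16.8% in WT mice. Without A226Y animal 29 and WT animal 33 these were 13.7% and 6.04%, and in WT mice 6 other members then varied more, up to 12.7% for *Acads*. The log2 fold change of *Acadm*, −0.07, carried a wide interval (SE 0.15, 95% interval −0.38 to 0.25, adjusted p = 0.805).

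*Acadl*, the long-chain enzyme (ENSMUSG00000026003, chromosome 1, 66830839 to 66863277, minus strand), ran from 296 to 507 CPM in A226Y mice (median 445) and from 298 to 455 CPM in WT mice (median 422). *Acadvl*, the very-long-chain enzyme of the inner membrane (ENSMUSG00000018574, chromosome 11, 70010183 to 70015411, minus strand), ran from 526 to 746 CPM in A226Y mice (median 661) and from 507 to 791 CPM in WT mice (median 701). For neither gene did the genotypes separate. The log2 fold change of *Acadl* was 0.06 (SE 0.09, 95% interval −0.13 to 0.25, adjusted p = 0.712). That of *Acadvl* was −0.01 (SE 0.09, 95% interval −0.19 to 0.17, adjusted p = 0.954). *Acadvl* shares 1151 exonic bases with *Dvl2* on the opposite strand, 24% of its 50-base stretches occur in *Dvl2* transcripts, and *Dvl2* carried 55.9% as many counts, so its level is uncertain without strand. The ratios of *Acadvl* to *Acadm* and of *Acads* to *Acadm* differed between the genotypes by 0.09 (95% interval −0.16 to 0.33) and −0.13 (95% interval −0.40 to 0.15) on the log2 scale, with adjusted p-values of 0.656 and 0.57 from two-sided exact permutation tests.

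The subunits of the trifunctional protein lie head to head on chromosome 5. *Hadha*, with the hydratase and long-chain dehydrogenase activities (ENSMUSG00000025745, 30118304 to 30155162, minus strand), is separated by 85 bases from *Hadhb*, the thiolase (ENSMUSG00000059447, 30155248 to 30184593, plus strand). By the RefSeq start sites 272 bases lie between them, and their promoter windows share 228 bases (chr5:30155003-30155230). The *Hadhb* window is shown because it holds this stretch, as its first 228 bases, with GGGCGG on either strand in capitals.
*Hadhb*, chr5:30155003-30155302, plus strand: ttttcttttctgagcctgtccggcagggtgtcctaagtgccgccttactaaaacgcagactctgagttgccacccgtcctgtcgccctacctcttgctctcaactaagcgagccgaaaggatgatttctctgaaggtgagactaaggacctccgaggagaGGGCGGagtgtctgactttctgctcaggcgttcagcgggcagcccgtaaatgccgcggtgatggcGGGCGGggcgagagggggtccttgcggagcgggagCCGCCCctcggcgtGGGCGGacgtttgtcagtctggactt
GGGCGG occurred in 8 of the 10 members' windows (80.0%) and in 35.7% of all 32851 windows. *Acadvl* and *Acadm* were the members without it. The only match in the *Hadha* window is the first one marked in the *Hadhb* window, so both windows count the same site. GC content ran from 50.7% (*Acadvl*) to 70.3% (*Acadl*) in the members' windows, and windows of matched GC content were not compared.

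*Hadha* had lowest, median and highest levels of 375, 537 and 677 CPM in A226Y mice and 401, 555 and 622 CPM in WT mice. *Hadhb* had 22.4, 37.7 and 46.0 CPM in A226Y mice and 25.6, 36.4 and 42.5 CPM in WT mice. Both ranges were wider in A226Y mice and held every WT mouse. The log2 fold changes were −0.01 for *Hadha* (SE 0.10, 95% interval −0.22 to 0.21, adjusted p = 0.969) and 0.03 for *Hadhb* (SE 0.11, 95% interval −0.20 to 0.27, adjusted p = 0.873). Their log2 ratio differed by −0.04 between the genotypes (95% interval −0.13 to 0.05, two-sided exact permutation, adjusted p = 0.57 over 5 ratios).

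With each genotype centred on its mean, the log2 levels of *Hadha* and *Hadhb* had a Pearson r of 0.95 (permutation p = 1e-05, the smallest that 100000 permutations can give) and a Spearman rho of 0.895 (permutation p = 3e-05). Within A226Y mice r was 0.977 and rho 0.976 (permutation p = 1e-05 and 2e-05). Within WT mice r was 0.892 and rho 0.69 (permutation p = 0.013 and 0.068). Without A226Y animal 29 and WT animal 33, the mice farthest from the median, r was 0.864 and rho 0.841. Other members also followed the subunits over the 18 mice, with r of 0.928 for *Acadl* and *Hadha*, 0.891 for *Acadl* and *Hadhb* and 0.853 for *Slc25a20* and *Hadha*. Without those mice these r were 0.79, 0.614 and 0.617, and the difference from the pair *Hadha* and *Hadhb* was not tested. The level of *Hadhb* itself is uncertain, since 62.4% of its 50-base stretches also occur in the processed pseudogenes *Gm13910* and *Gm9108*, whose counts were not analysed here.

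Per kilobase of transcript, the members ranked, by their median over the 18 mice, as *Acadm* (320 CPM per kilobase), *Acadvl* (317), *Hadh* (259), *Acadl* (223), *Cpt1a* (144), *Hadha* (138), *Slc25a20* (121), *Acads* (100.4), *Cpt2* (91.2) and *Hadhb* (17.8). *Acadm* exceeded *Acadvl* in 8 of 18 mice and *Cpt1a* exceeded *Hadha* in 12, so these neighbours were not separated beyond their spread. *Acadl* lay above *Cpt1a*, *Hadha* above *Slc25a20* and *Slc25a20* above *Acads* in 17 of 18 mice each. *Acads* lay above *Cpt2* in all 8 WT mice and in 6 of 10 A226Y mice, and the A226Y means had the opposite order (95.3 and 96.3). *Hadhb* was the lowest in all 18. *Hadh* lay above *Acadl* in all 8 WT mice and 6 of 10 A226Y mice, and above *Acadvl* in 4 of 8 WT mice and 0 of 10 A226Y mice. Its level per kilobase was 226.3 ± 46.5 in A226Y mice and 296 ± 35.4 in WT mice (SD, n = 10 and 8), while that of *Acadl* was 223 ± 29.7 and 214 ± 24.8.

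The largest deviations came from a pair of mice. A226Y animal 29 was the lowest of its genotype in 9 of 10 members, all but *Cpt2*, with a median deviation of −0.52 on the log2 scale from the genotype's median. WT animal 33 was also the lowest of its genotype in 9 of 10, with a median deviation of −0.48, and had the highest *Cpt1a* level of the WT mice. Summed over the 10 members, they held 2754 and 3270 CPM, against 3794 to 4436 CPM in the other mice. Summed counts of 8 acute phase genes, a list made after the values were seen, reached 28620 CPM in A226Y animal 29 and 3278 to 5401 CPM in the other A226Y mice. WT animals 33 and 14 had 9290 and 8857 CPM, the other WT mice 3144 to 5184 CPM. *Alb*, the main secreted liver protein, was at 48040 CPM in A226Y animal 29, the lowest of all mice, and at 144000 CPM in WT animal 33, the highest. The part of these differences in the members' levels was not tested.

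**Figure D4:**
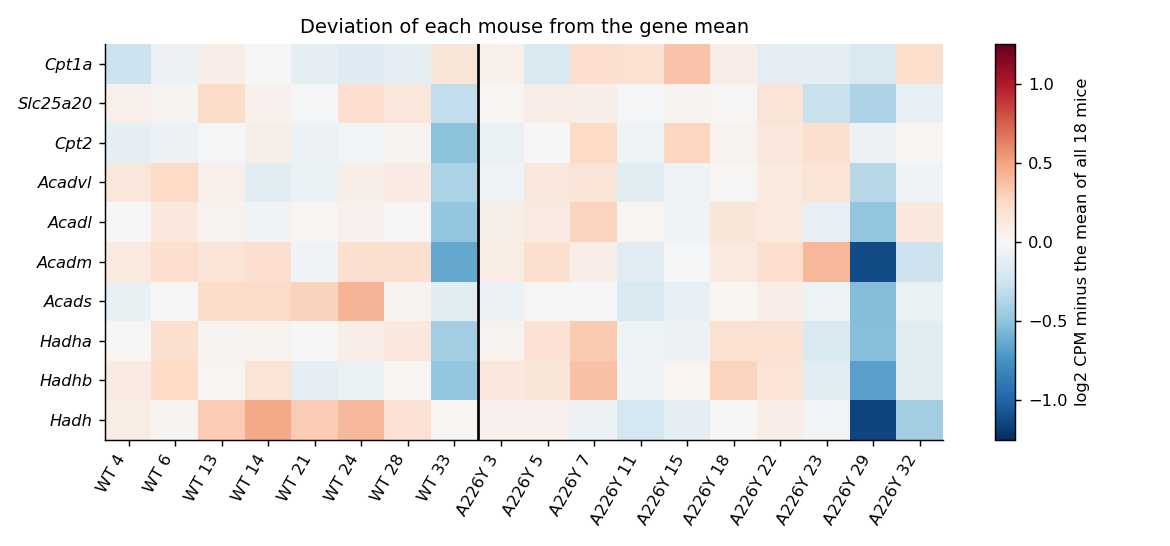
Deviation of each member (lines of the map) in each mouse (columns, WT left of the black line and A226Y right of it) from the mean log2 CPM of all 18 mice, red above and blue below. WT 33 and A226Y 29 are blue in nearly all members, *Cpt1a* in WT 33 being above the mean, and *Hadh* is mostly red in WT mice.

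Without these 2 mice *Hadh* fell by 0.34 on the log2 scale (adjusted p = 0.00912), and *Hadh* and *Acads* were the members called, 2 of 10 beside 17.8% of all genes tested in that fit. The genotype-centred correlations between members, which share library and scaling and are given as a description, had a median Pearson r of 0.659 over 45 pairs and 18 mice, and 0.198 without A226Y animal 29 and WT animal 33. *Cpt1a* stood apart in both, with a median r to the other 9 members of 0.05 and −0.08. Among the genes outside the list whose genotype-centred levels were most like the members', by median r over the 10 members and 18 mice, were *Aldh3a2* (0.831), a fatty aldehyde dehydrogenase, *Ech1* (0.825), a dienoyl-CoA isomerase, *Dhrs4* (0.819), a short-chain dehydrogenase/reductase, and *Ghitm* (0.811), a protein of the inner mitochondrial membrane. The r of these genes was not recomputed without A226Y animal 29 and WT animal 33. None of these 4 passed the test between the genotypes, with log2 fold changes from −0.15 to −0.02.

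Of 60 genes of the remaining steps and controls of the pathway, 58 could be tested, and 14 passed (24.1%, beside 14.3% of all tested genes), 5 of them higher (8.62%) and 9 lower (15.5%) in A226Y mice. Their median log2 fold change was −0.08. *Acsl6* and *Acsm2* did not pass the filter on low counts. With 4 surrogate variables none of the 58 passed the adjusted threshold in edgeR, beside 0.374% of all genes called in that fit. There 10 of the 58 had an unadjusted p under 0.05, and the share of all genes at that threshold was not counted. DESeq2 and limma-voom without surrogate variables called 16 and 12, beside 18.1% and 14% of all genes. Library size only called 6 higher and 6 lower (20.7% of the 58, beside 15.4% of all genes). The GC offset called 6 higher and 7 lower (22.4%, beside 12.2% of all genes). With WT animal 14 left out 6 passed (10.3%, beside 9.42% of all genes), and with A226Y animal 7, 11 or 32 or WT animal 13 or 21 left out 9 passed (15.5%, beside 10% to 11.2% of all genes).

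Of 7 other genes of the spiral 2 fell and none rose: *Echs1*, the hydratase for short chains, went from 322 ± 37.4 to 267 ± 31.6 CPM (WT and A226Y mean ± SD, log2 fold change −0.27, SE 0.08, adjusted p = 0.0369), and *Acad10*, an acyl-CoA dehydrogenase homologue, from 31.1 ± 5.67 to 23.3 ± 3.49 CPM (−0.41, SE 0.11, adjusted p = 0.0175). In the branch that converts propionyl-CoA from odd chains, 4 of 6 fell and none rose. *Pcca* and *Pccb*, the subunits of propionyl-CoA carboxylase, both fell by 0.29 on the log2 scale (adjusted p = 0.0476 and 0.0155). *Mmaa* and *Mmab*, which serve the cobalamin cofactor of methylmalonyl-CoA mutase, fell by 0.31 and 0.65 (adjusted p = 0.0296 and 0.0247). The mutase gene itself (*Mut*) had a log2 fold change of −0.07 (adjusted p = 0.582).

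Of 8 acyl-CoA synthetases tested 2 fell. *Acsm1*, which activates medium chains, went from 228 ± 50.5 to 146 ± 10.8 CPM (−0.65, SE 0.10, adjusted p = 0.00149), the smallest adjusted p among the 58 genes. *Acsl3*, a long-chain synthetase, went from 30.7 ± 6.72 to 21.3 ± 5.22 CPM (−0.53, SE 0.15, adjusted p = 0.0261). Of the 3 mitochondrial deacylases *Sirt4* fell, from 8.97 ± 1.17 to 6.96 ± 0.72 CPM (−0.37, SE 0.08, adjusted p = 0.00685).

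Among the 5 higher genes, *Slc22a5*, the carnitine transporter of the plasma membrane, and *Crat*, carnitine acetyltransferase, rose out of 5 genes of carnitine supply, by 0.28 and 0.37 on the log2 scale (adjusted p = 0.0455 and 0.0479). *Etfdh*, which passes electrons from the dehydrogenases to ubiquinone, rose from 391 ± 55.4 to 486 ± 70.1 CPM (0.31, SE 0.10, adjusted p = 0.0474), while *Etfa* and *Etfb*, the subunits of the flavoprotein before it, had log2 fold changes of −0.08 each. *Cpt1b*, the muscle form of the outer membrane transferase, rose from 3.52 ± 1.91 to 6.54 ± 1.57 CPM (0.89, SE 0.24, adjusted p = 0.0192). Of 12 regulators only *Ppargc1a*, a coactivator of PPARA and of mitochondrial genes, passed, rising from 13.3 ± 3.27 to 22.2 ± 5.65 CPM (0.74, SE 0.16, adjusted p = 0.00539). *Ppara* was at 106 ± 17.0 CPM in A226Y and 105 ± 16.2 CPM in WT mice.

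Of the lists, the auxiliary isomerases and reductases, malonyl-CoA control and ketone body enzymes had no gene that passed in the edgeR fit with TMM. In each the gene with the smallest p is given: *Ech1* among the auxiliary isomerases and reductases (log2 fold change −0.15, adjusted p = 0.488), *Acacb*, the acetyl-CoA carboxylase that makes malonyl-CoA at mitochondria (0.40, adjusted p = 0.0717), and *Bdh1* among the ketone body enzymes (−0.39, adjusted p = 0.118). *Acacb* did pass with DESeq2 (adjusted p = 0.0417), library size only (0.0398), the GC offset (0.0425), and without A226Y animal 5 (0.0322), and it also passed without WT animal 13. *Bdh1* passed without both A226Y animal 29 and WT animal 33 (adjusted p = 0.0183). *Acsm1*, *Acad10*, *Pccb*, *Cpt1b*, *Ppargc1a* and *Sirt4* kept an adjusted p under 0.05 with each of the 18 mice left out in turn, but not with 4 surrogate variables. In that fit the log2 fold changes were −0.35 for *Acsm1*, −0.23 for *Acad10*, −0.15 for *Pccb*, 0.30 for *Cpt1b*, 0.19 for *Ppargc1a* and −0.25 for *Sirt4*, with adjusted p-values from 0.126 to 0.40. *Acad10* also missed the threshold with the GC offset (adjusted p = 0.0577). *Acsl3* and *Mmab* lost it without WT animal 14 and, like the others, with surrogate variables (−0.38 and −0.47, adjusted p = 0.247 and 0.23). The calls of *Mmaa*, *Echs1*, *Slc22a5*, *Pcca*, *Etfdh* and *Crat* remained in 14, 11, 8, 5, 2 and 2 of the 18. Of the 10 other ways of scaling, filtering, testing or adjusting the counts, 8, 5, 8, 4, 6 and 6 kept these calls, in the same order of genes.

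**Figure D5:**
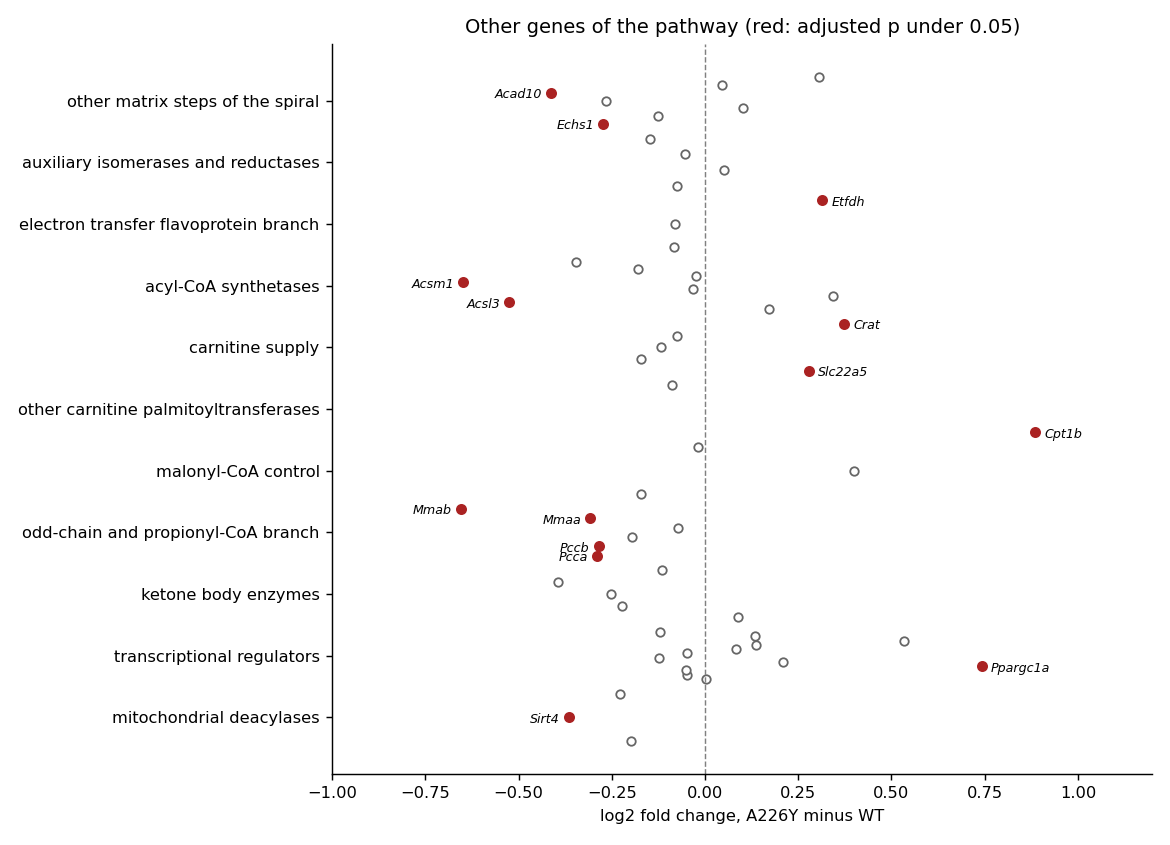
Log2 fold change (A226Y minus WT, horizontal axis) of the 58 other pathway genes tested, 1 point per gene, grouped by role, with the 14 genes of adjusted p under 0.05 in red and named. Red points lie below 0 for the matrix spiral, synthetase, propionyl-CoA and deacylase lists, and above 0 for the electron transfer, carnitine and regulator lists.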

How the data were processed

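The authors deposited raw counts of reads per Ensembl gene, 1 file per mouse, not normalized. The submitters' processing notes name bcl2fastq, fastp, MultiQC, STAR, featureCounts and GRCm38, while the methods of the paper name RSEM with an older assembly, so which quantifier made the counts is not settled. Strand handling and the treatment of reads with several matches are not given in the sources used here. Genotypes came from the labels, which name no batch. Members and lists were chosen with earlier results of these data known. The genes named are all members, every other pathway gene with an adjusted p under 0.05, the gene with the smallest p of each list without one, the 5 genes most like the members, and *Rps2*. The values of 1 gene are not reported here. *Dvl2*, *Etfa*, *Etfb*, *Mut*, *Ppara*, *Alb* and *Clec4f* were added after their values were seen.

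Symbols and coordinates were taken from GENCODE M21 (GRCm38), which matched 22291 of 22524 identifiers, and promoters from RefSeq (GRCm38.p6), which matched all 10 members. Genes with at least 10 counts in 50% of the mice of 1 genotype were tested with edgeR 4.0.16 (R 4.3.3): TMM, quasi-likelihood fit, no covariates, two-sided, Benjamini-Hochberg adjustment over 13353 genes. Adjusted p-values are from this fit unless another test is named. Exact permutation tests used log2 CPM (prior count 2) over all divisions of the mice into 10 and 8. Alternatives were other scalings and filters, DESeq2 1.42.0, limma-voom 3.58.1, 4 surrogate variables (sva 3.50.0), offsets for transcript length or GC content, and leaving out mice. Members had at least 733 counts in every mouse, so the spread between mice (common biological coefficient of variation 0.194) limits precision. Each library is labelled as its own animal, and no pair of same-genotype mice agreed within sampling noise.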

Additional observations from a re-analysis of the deposited data

Results flagged for a closer look

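In 6 of 20 groups (10 members in both genotypes) the lowest mouse was separated from the others by a gap larger than Dixon's 95% limit, which chance passes in about 1 in 20 groups. WT animal 33 was such a mouse for *Cpt2* (152 CPM), *Acadl* (298 CPM), *Acadm* (385 CPM) and *Hadha* (401 CPM). A226Y animal 29 was such a mouse for *Acads* (130 CPM) and *Hadh* (202 CPM). The 20 groups share mice, so these gaps are not independent of each other.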

How the results depend on the processing

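*Hadh* stayed lower in every alternative, but its call was lost with RLE size factors (log2 fold change −0.38, adjusted p = 0.0501), library size only (−0.35, 0.0601), no filter (−0.39, 0.0599), surrogate variables (−0.18, 0.192), and the offsets for length (−0.32, 0.104) and GC content (−0.37, 0.0649). In those 6 edgeR fits 0 members were called, beside 14.1%, 15.4%, 8.97%, 0.374%, 11.5% and 12.2% of all genes in the order given. An unadjusted p under 0.05 was reached there by 1 (surrogate variables) to 3 (library size only) members, with no share of all genes counted at that threshold. DESeq2 and limma-voom called 1 member each, beside 18.1% and 14% of all genes called. Leaving out both low mice, chosen after seeing the data, gave 2 members called, beside 17.8% of all genes in that fit. With 1 mouse left out, members called ranged from 0 to 1, the log2 fold change of *Hadh* from −0.42 to −0.31, pathway genes called from 6 to 16 and all genes called from 1255 (without WT animal 14) to 2560 (without A226Y animal 29). Pathway genes called were 9 of 60 with no filter (15.0%, beside 8.97% of all genes) and 0 with surrogate variables, and all genes called were 50 with surrogate variables. Library size only gave 1399 higher and 660 lower genes, beside 971 and 939, and moved the median log2 fold change of all genes from −0.004 to 0.04. The causes were not tested. No value changed sign while called. All 5 ratios kept their side of the threshold with a prior count of 0.5, with each mouse left out in turn and without both low mice. The ratios were not computed with surrogate variables or with the offsets for length and GC content. No paired analysis was made, because the labels give no litter or other pairing of mice across the genotypes.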
